A study of Mus musculus with 4 samples.

Results

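The cytosolic ribosomal protein genes were taken from a table of raw RNA counts as the rows whose symbol starts with Rpl or Rps and a digit, together with Rpsa, Rplp0, Rplp1 and Rplp2. Rows with -ps in the name (7 rows) and the Rps6k kinases (10 rows) were left out. This gave 86 genes of 41457 rows, of which 52 carry a large subunit name and 34 a small subunit name. The 86 include 8 paralogs, genes related to that of a common ribosomal protein (Rpl3l, Rpl7l1, Rpl10l, Rpl22l1, Rpl36al, Rpl39l, Rps27l and Rps27rt). They also include Rps19bp1, whose product is a binding partner of Rps19 and not a ribosomal protein. The other 77 are standard ribosomal proteins. For the comparisons, 84 of the 86 had enough counts. The others were Rpl3l, with 1 count in M8 and 0 elsewhere, and Rpl10l, with 1 count each in control and M83 and 0 elsewhere.

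The cytosolic ribosome is built from a small subunit, which reads the mRNA, and a large subunit, which joins amino acids, and most of its proteins are needed in 1 copy per ribosome. Their mRNAs are among the most abundant of a growing cell, and most start with a run of pyrimidines at the 5′ end, the TOP motif, through which mTOR signalling controls their translation as a group. Ribosome production follows cell growth, and MYC and RNA polymerase I are known to drive it in tumours.

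The material was mouse colon tumour cells in RPMI culture, and poly(A) RNA was read for 4 samples. They were the control cells and 3 lines labelled as ENU mutants, M8, M32 and M83, where ENU stands for N-ethyl-N-nitrosourea, a chemical mutagen that alkylates DNA and mostly causes single-base changes. Each sample has 1 column of counts, called a library here, so the comparison is 1 control library against 3 lines of 1 library each, and every ratio below shares that control. The name of the tumour line, the mutated genes and whether the control was the parent culture of the lines were not stated in the sources used here, nor were the strain, sex and age of the mouse of origin. The libraries held between 25818148 and 28879954 counts. Of the markers that define colon epithelium, Epcam, Cdx2 and Muc2 were at 0 in all libraries and Cdh1 at 4, 2, 0 and 0 counts in control, M8, M32 and M83, while Krt18 had 710 to 1794 counts and Krt20 1008 to 3667. Of 5 mesenchymal markers, Vim had at least 115473 counts per library, Col1a1 and Col1a2 at least 10970, Pdgfrb 424 to 2341, and Thy1 was at 0 in all libraries. Summed markers of leukocytes gave 37 to 51 counts and those of endothelium 7 to 31.

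RefSeq promoter windows (build GRCm38.p6) matched 66 of the 86 genes by symbol. The 10 windows printed here are those of genes that the results turn on, 6 that were low in 1 or more mutant lines and then the 4 that lay above control in every line. Each runs from 50 bases before an annotated transcription start to the first 20 bases of the transcript. Capitals mark the longest pyrimidine run of at least 8 bases near the start and any match to CCGGAAG or its reverse complement CTTCCGG, the core of ETS factor sites. Rpl34 lies at chr3:130730318-130730387 (minus strand), Rpl31 at chr1:39367801-39367870 (plus strand), Rpl39 at chrX:37085203-37085272 (minus strand), Rpl24 at chr16:55966225-55966294 (plus strand), Rps27 at chr3:90213629-90213698 (minus strand) and Rpl28 at chr7:4792915-4792984 (plus strand). Rps2 lies at chr17:24720013-24720082 (plus strand), Rps12 at chr10:23787190-23787259 (minus strand), Rps18 at chr17:33955646-33955715 (minus strand) and Rps28 at chr17:33824543-33824612 (minus strand).
Rpl34: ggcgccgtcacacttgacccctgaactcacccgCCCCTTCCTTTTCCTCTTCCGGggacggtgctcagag
Rpl31: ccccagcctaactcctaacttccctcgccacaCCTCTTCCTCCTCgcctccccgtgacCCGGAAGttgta
Rpl39: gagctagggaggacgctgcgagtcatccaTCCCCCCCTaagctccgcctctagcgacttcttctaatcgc
Rpl24: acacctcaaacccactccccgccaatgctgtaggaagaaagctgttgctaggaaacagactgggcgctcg
Rps27: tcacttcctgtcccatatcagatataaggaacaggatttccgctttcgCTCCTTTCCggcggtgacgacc
Rpl28: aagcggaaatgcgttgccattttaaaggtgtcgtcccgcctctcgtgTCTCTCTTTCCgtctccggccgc
Rps2: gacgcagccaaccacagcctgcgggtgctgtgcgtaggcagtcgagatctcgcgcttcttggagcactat
Rps12: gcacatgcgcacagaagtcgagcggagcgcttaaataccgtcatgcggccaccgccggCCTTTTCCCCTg
Rps18: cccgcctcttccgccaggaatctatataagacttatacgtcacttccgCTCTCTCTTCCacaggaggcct
Rps28: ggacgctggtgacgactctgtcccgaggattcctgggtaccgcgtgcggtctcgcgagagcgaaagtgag
In the Rpl34 window the pyrimidine run and the CTTCCGG match overlap in 1 block of capitals. The Rpl24, Rps2 and Rps28 windows hold no such run near the start.

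Over all matched genes, a run of at least 8 pyrimidines (C or T, on the sense strand only) within 25 bases either side of a start was found in 33 of 66 ribosomal protein genes (50%), against 22.8% of the 9882 tested genes with a window and 22.3% of all 27025 genes with one. CCGGAAG, searched on both strands over the whole window from 250 bases before to 50 bases after the start, was in 26 of 66 (39.4%), against 20.6% of tested genes and 9.93% of all. AAGATGGC, the YY1 core, was in 9.09% against 5.38% of tested genes. GGGCGG, the SP1 box, was in 62.1% against 67.5%, and TATAAA in 10.6% against 8.79%, also on both strands. The pyrimidine run and CTTCCGG can overlap, as in Rpl34. The 33 genes with a pyrimidine run had a median log2 difference between mutant lines and control of -0.17, and the 31 tested genes with a window and no run had -0.13. The lines differed in the order of the 2 groups. The median log2 ratio with a run and without one was -0.09 and -0.16 in M8, -0.18 and -0.16 in M32, and -0.18 and -0.10 in M83. With CCGGAAG the median difference was -0.16 in 26 genes, and without it -0.16 in 38 genes. By line the medians with and without CCGGAAG were -0.06 and -0.18 in M8, -0.19 and -0.15 in M32, and -0.14 and -0.12 in M83, so that M8 again had the opposite order to the other lines. These differences between groups of genes were not tested.

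In control, ribosomal protein mRNA made up 6.23% of all counts (exact 95% binomial interval 6.22 to 6.24). The share was 5.73% for M8 (5.72 to 5.74), 5.63% for M32 (5.62 to 5.64) and 6.03% for M83 (6.02 to 6.04). Control was the highest library and M32 the lowest, and the intervals, which cover counting error only, do not overlap. The large subunit genes took 3.93% of counts in control, against 3.47% for M8, 3.5% for M32 and 3.76% for M83. The small subunit genes took 2.30%, 2.25%, 2.12% and 2.27% in the same order. Control was again highest for both, and the lowest library was M8 for the large and M32 for the small subunit. Mitochondrially encoded genes, which share the denominator, took 2.36% of counts in control, compared with 1.27% for M8, 3.10% for M32 and 2.50% for M83. Counted over protein-coding nuclear genes alone, the ribosomal protein share was 6.47% in control, against 5.89% for M8, 5.89% for M32 and 6.28% for M83. With this denominator M8 (5.88 to 5.89) and M32 (5.88 to 5.90) had overlapping intervals, and M32 was no longer the lowest library by itself. In bulk RNA, less mRNA per cell and fewer cells with high levels cannot be told apart.

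Levels of different genes were compared per length, as counts per kilobase of annotated exon scaled to the same sum in each library (the transcripts-per-million scale, TPM). On this scale the 84 genes had a median of 1160 in control, compared with 1016 for M8, 1039 for M32 and 1041 for M83, and in control 35 of the 100 most abundant genes of the library were among them. The highest was Rplp1, an acidic protein of the stalk that recruits translation factors, with 8413 in control, against 9169 for M8, 7405 for M32 and 7655 for M83. Rps3a1, of the small subunit, followed with 6075, 7744, 5970 and 6243 in the same order. Both were highest in M8. Rpl41, the smallest ribosomal protein, had 4632, 4830, 3793 and 4470, Rplp0, the base of the stalk, 4274, 3953, 4066 and 4363, and Rpl8, which lies by the peptidyl transferase centre, 3997, 4615, 3656 and 3136. Of these 3, Rpl41 was lowest in M32, Rplp0 in M8 and Rpl8 in M83. Rpl8 lies on chromosome 15, whose tested genes had a median log2 ratio over control of -0.19 in M83. Less the chromosome median, the log2 ratios of Rpl8 were -0.04 for M8, -0.26 for M32 and -0.23 for M83, so that M83 was no longer lowest. The order of the levels rests on the length used. With the length of the longest annotated transcript, Rplp1 was again first in control (6343), Rpl41 came before Rps3a1 (5869 and 4581), and 45 of the 100 most abundant genes were of the family.

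The lowest level per length was that of Rps18, with 51.1 in control, compared with 60.6 for M8, 54.4 for M32 and 56.7 for M83, and the next that of Rps12, with 78.0, 116, 87.2 and 94.0. With the longest transcript as length this order turned, with 66.4 for Rps12 and 82.0 for Rps18 in control, and in M83 Rps27rt was lowest (70.6). Rows of near-identical copies of both genes also held counts, and reads of a gene and its copy may be split in counting. Rps12-ps3, a copy on chromosome 19 that the naming rule left out, held 20751 counts in control, against 24568 for M8, 19889 for M32 and 24334 for M83, while Rps12 held 1258, 2023, 1475 and 1639. Rows of copies took 94.3% of the joined Rps12 counts in control and 95.7% of those of Rps18, whose copies are Gm11361 and Gm10260. For Rpl10, which joins the large subunit late in its assembly, the copy Rpl10-ps3 took 47.4%. The low levels of Rps18 and Rps12 are therefore uncertain. Next came Rps19bp1 with 158 in control, Rps27rt with 159.7 and Rpl7l1 with 160.3, 3 genes outside the standard set.

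**Figure D1:**
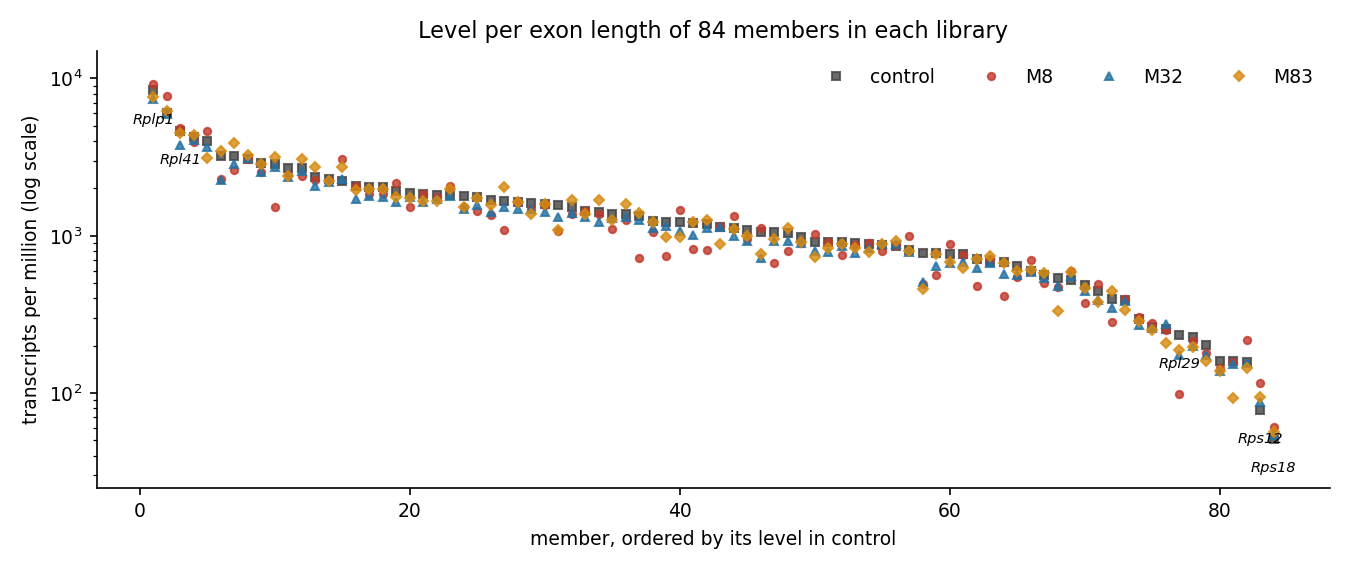
Level per exon length (TPM, log scale) of the 84 genes in each of the 4 libraries, ordered by the level in control, 1 symbol per library. Levels ran from 51.1 for Rps18 to 8413 for Rplp1 in control, and the symbols of 1 gene mostly lie close together, with M8 apart for Rpl29 and Rps12.

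Across the 3 mutant lines most ribosomal protein mRNAs lay slightly below control, and no gene of the family passed the test. The median log2 difference between mutant lines and control was -0.15 over the 84 genes, against 0.02 over all 13576 tested genes and -0.03 over the 2306 other genes with a mean of at least 100 on the counts-per-million scale (CPM). It was -0.16 for the 50 large subunit genes and -0.13 for the 33 small subunit genes, Rps19bp1 left aside. In edgeR's quasi-likelihood test with Benjamini-Hochberg adjustment over all genes, 0 members were called higher (0.0% of all tested genes were) and 0 lower (0.00737% of all genes, that is 1 gene). At an unadjusted p under 0.05 there was 1 member, Rpl34, among 448 genes (3.3% of all). DESeq2 called 40 genes and 0 members. The test has 2 residual degrees of freedom and takes the control to vary like the lines, so its p-values measure only the spread between different mutant lines.

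TMM-scaled levels were below control in all 3 lines for 45 of the 84 genes, while 21.3% of all tested genes and 25.3% of the other genes with a mean CPM of at least 100 did so. Above control in all 3 lines were 4 of 84 (Rps12, Rps2, Rps28 and Rps18), against 23.3% of all tested genes and 17.6% of those other genes. Of the 45 genes below, 29 were of the 50 large subunit genes and 16 of the 33 small subunit genes. All 4 above were small subunit genes. Control was the highest of the 4 libraries for 45 of 84 genes, M8 for 21, M83 for 16 and M32 for 2. The lowest library was M8 for 35 genes, M83 for 26, M32 for 19 and control for 4. Since the 3 ratios of a gene share 1 control library, that library enters each of these counts. Without M8 61 genes lay below control in both other lines, without M32 51 and without M83 61. The shares of all tested genes given above are for all 3 lines, a stricter condition. For counts with 1 line left out, and for M8, M32 or M83 as highest or lowest library, that share was not computed.

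**Figure D2:**
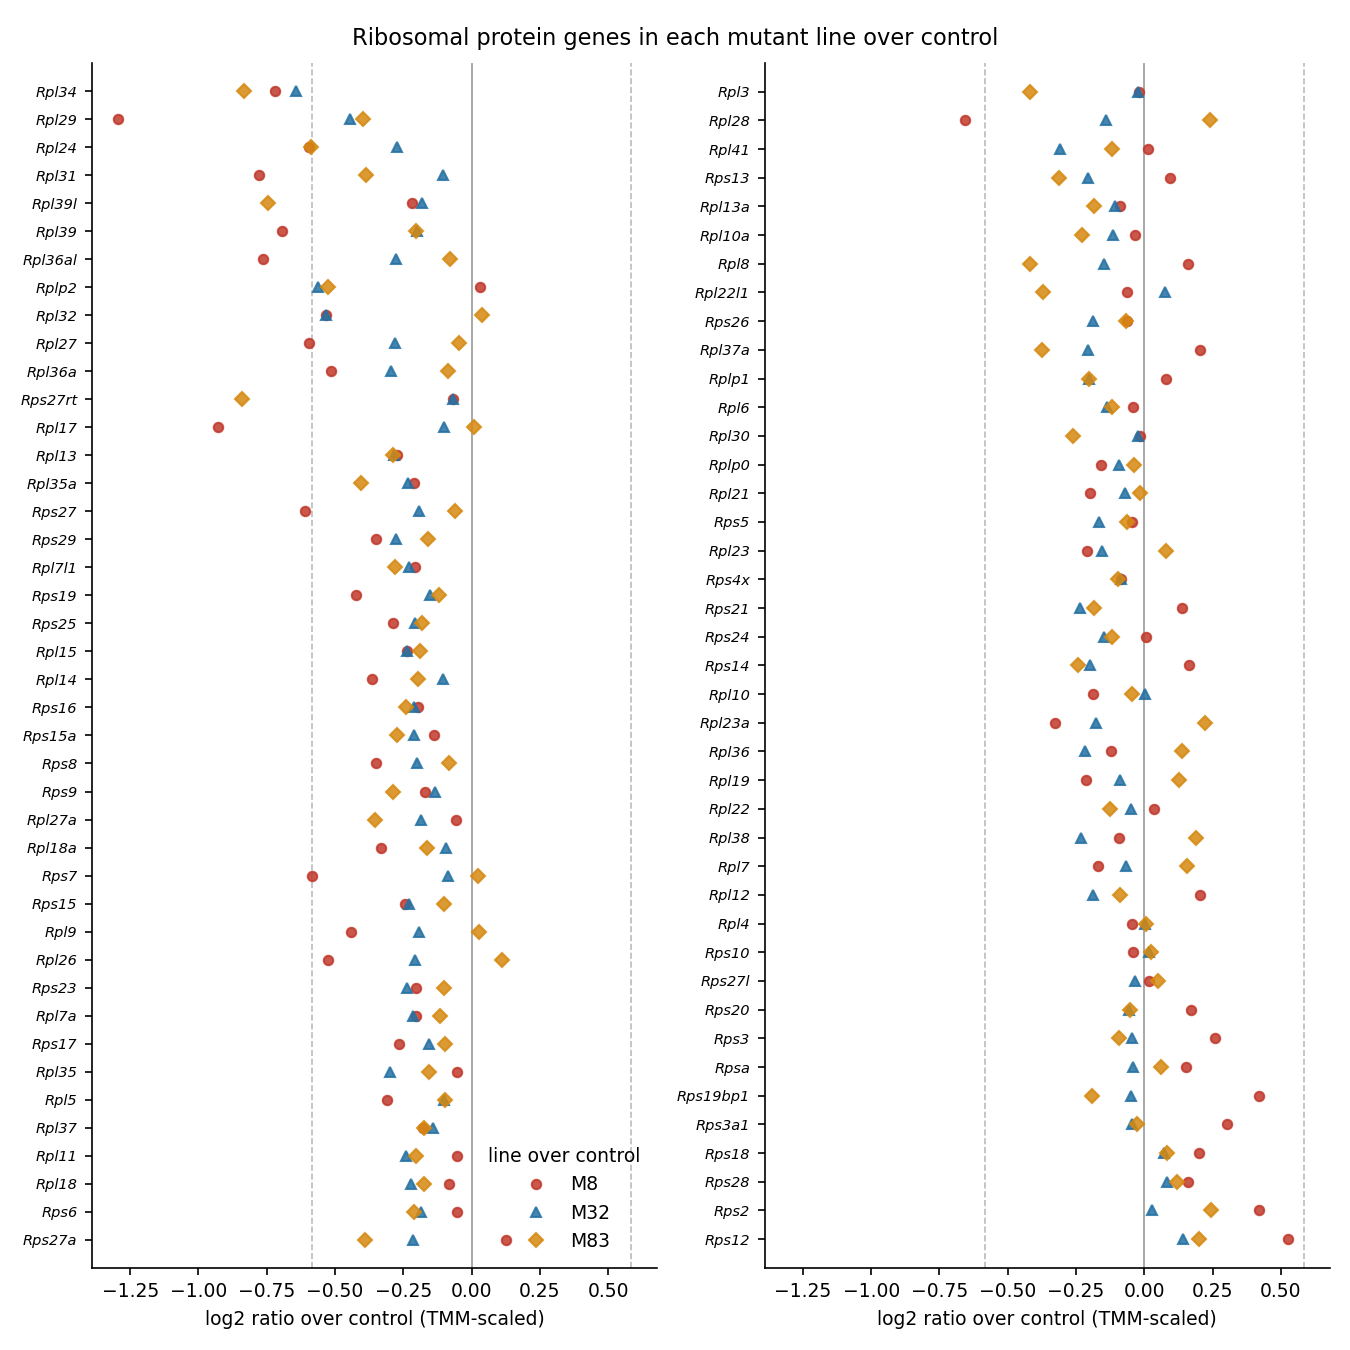
Log2 ratio over control of the named genes of the family in M8 (circles), M32 (triangles) and M83 (diamonds), ordered by the difference between mutant lines and control from the lowest (top left) to the highest (bottom right), 1 library per symbol. Dashed lines mark 1.5-fold; Rpl34 is the gene with all 3 symbols beyond the lower line, and no symbol lies beyond the upper one.

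The spread of the ratios differed between the 3 lines. M32 had 76 of 84 genes below control, with a median log2 ratio of -0.17 and an SD between genes of 0.13. M8 had 62 below, with a median of -0.15 and an SD of 0.32, and M83 had 63 below, with a median of -0.12 and an SD of 0.22. Among the other genes with a mean CPM of at least 100, these SDs were 0.33 in M32, 0.34 in M8 and 0.36 in M83. Thus the SD of the ribosomal protein genes was below that of other abundant genes in M32 and M83 and about the same in M8. The difference in SD was not tested. Of all 13576 tested genes, 6797 lay below control in M32, 6440 in M8 and 6649 in M83. Of the 2306 other genes with a mean CPM of at least 100, 1301, 1042 and 1419 did so in the same order. In M8 the large subunit median was -0.20 and the small subunit median -0.05. In M32 they were -0.19 and -0.15, and in M83 -0.16 and -0.10. The medians of all tested genes were 0.02 for M8, -0.00043 for M32 and 0.01 for M83. Those of the other genes with a mean CPM of at least 100 were 0.03 for M8, -0.04 for M32 and -0.09 for M83, so that M83 set the family least apart from them. With scaling by library size only, the family median in M83 was -0.055.

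**Figure D3:**
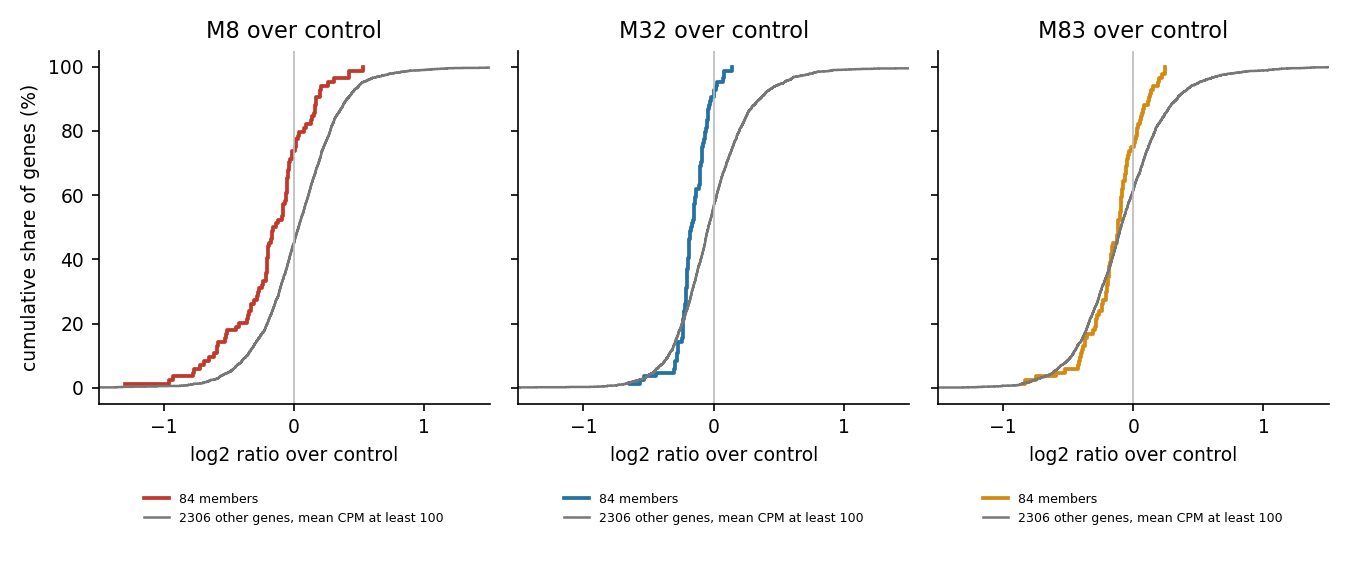
Cumulative share (%) of genes by log2 ratio over control in each line, for the 84 ribosomal protein genes (coloured) and the 2306 other genes with a mean CPM of at least 100 (grey). The coloured curve is steepest in M32 (SD 0.13) and lies left of the grey one at the median, by the least in M83 (-0.12 against -0.09).

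With 1 library per line, single genes were picked by a rule of size, a TMM-scaled ratio of at least 1.5-fold with at least 50 counts in the higher library and an exact 95% interval of the ratio that leaves out 1. In M8, 0 members were higher (7.06% of all tested genes were) and 11 lower (5.73% of all). In M32, 0 were higher (8.11% of all) and 1 lower (3.7% of all). In M83, 0 were higher (8.81% of all) and 4 lower (5.33% of all). The share lower in M8, 11 of 84, is above that of all tested genes, whereas those in M32 and M83 are below or near it. Of the 2306 other genes with a mean CPM of at least 100, the rule gave 88 higher and 69 lower in M8. It gave 94 and 53 of them in M32, and 86 and 132 in M83, so that fewer abundant genes than all tested genes met it on the higher side. Among the 11 in M8 were Rpl31, Rps27, Rpl34, Rpl28, Rpl29, Rpl27, Rpl36al, Rpl24, Rpl17 and Rpl39. The 1 in M32 was Rpl34, and the 4 in M83 were Rpl34, Rps27rt, Rpl39l and Rpl24.

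Rpl34, a large subunit protein, was the only one of the 84 to meet the rule in all 3 lines. Its counts were 16433 in control, compared with 11143 for M8, 11194 for M32 and 10462 for M83, and its scaled levels 644, 391, 413 and 362 CPM in the same order. The 3 lines lay close together, and all were below control. The ratio over control was 0.608 for M8 (exact 95% interval 0.593 to 0.623), 0.641 for M32 (0.626 to 0.656) and 0.562 for M83 (0.548 to 0.576). The mean of the lines was 389 CPM ± 25.6 (SD, n = 3). The log2 difference was -0.73 (SE 0.20, unadjusted p = 0.0099, adjusted p = 0.9998 in edgeR's quasi-likelihood test and 0.364 in DESeq2). Rpl34 was also the only gene of the family to lie at least 1.5-fold above every other library in control, as 0.405% of all tested genes did.

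Rpl29, a small protein at the surface of the large subunit, had 2108 counts in control, against 957 for M8, 1647 for M32 and 1813 for M83, or 82.6, 33.6, 60.7 and 62.7 CPM. All 3 lines were below control and M8 was lowest, at a ratio of 0.407 (0.377 to 0.439), while M32 and M83 lay together at ratios of 0.735 and 0.759. The log2 difference of the lines was -0.66 (SE 0.36, adjusted p = 0.9998, edgeR), and -0.42 without M8. Rpl17, which lines the exit tunnel for the new protein, had 551 CPM in control, compared with 289 for M8, 513 for M32 and 555 for M83. M8 alone was low, at a ratio of 0.525 (0.511 to 0.539). Rpl29 and Rpl17 were among the 3 genes that M8 held at least 1.5-fold below every other library, as 3.09% of all tested genes were.

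Rpl31, at the rim of the exit tunnel, had 636 CPM in control, against 372 for M8, 592 for M32 and 487 for M83. It was lowest in M8 (ratio 0.584) and nearly at control in M32 (0.931). Rpl39, another protein of the tunnel, had 470 CPM in control, compared with 291 for M8, 410 for M32 and 408 for M83, so that again M8 was lowest. Rpl28 had 952 CPM in control, against 604 for M8, 864 for M32 and 1125 for M83. It was low in M8 and high in M83, and the row Ube2s overlaps 9.95% of its exon length on the opposite strand. Ube2s had 12702 counts in control, compared with 14355 for M8, 12418 for M32 and 9512 for M83, highest in M8 and lowest in M83. The part of this overlap in the Rpl28 values was not tested. Rpl32 had 971, 671, 672 and 997 CPM, low in M8 and M32 and close to control in M83. Rplp2, the other acidic stalk protein, had 683 CPM in control, compared with 699 for M8, 463 for M32 and 475 for M83, so that M32 and M83 stood below control and M8 did not. None of these 5 ribosomal protein genes passed edgeR's test (adjusted p = 0.9998 for each).

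Rpl24, which forms a bridge between the subunits, had 500.2 CPM in control, against 331 for M8, 414 for M32 and 332 for M83. All 3 lines were below control, and M8 and M83 lay together at ratios of 0.662 and 0.665. The log2 difference was -0.48 (SE 0.23, adjusted p = 0.9998, edgeR). Rpl24 lies on chromosome 16, which was low in M83 over all its tested genes (median -0.53, log2). Less the chromosome median, Rpl24 stood at -0.59 in M8, -0.24 in M32 and -0.06 in M83, so that M8 and M83 no longer lay together. The part of the chromosome in the M83 value was not tested further. Rpl13 was low by nearly the same amount in each line, with 1438 CPM in control, against 1189 for M8, 1182 for M32 and 1179 for M83. Its log2 difference was -0.28 (SE 0.19, adjusted p = 0.9998, edgeR), and it was named after its values were seen.

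**Figure D4:**
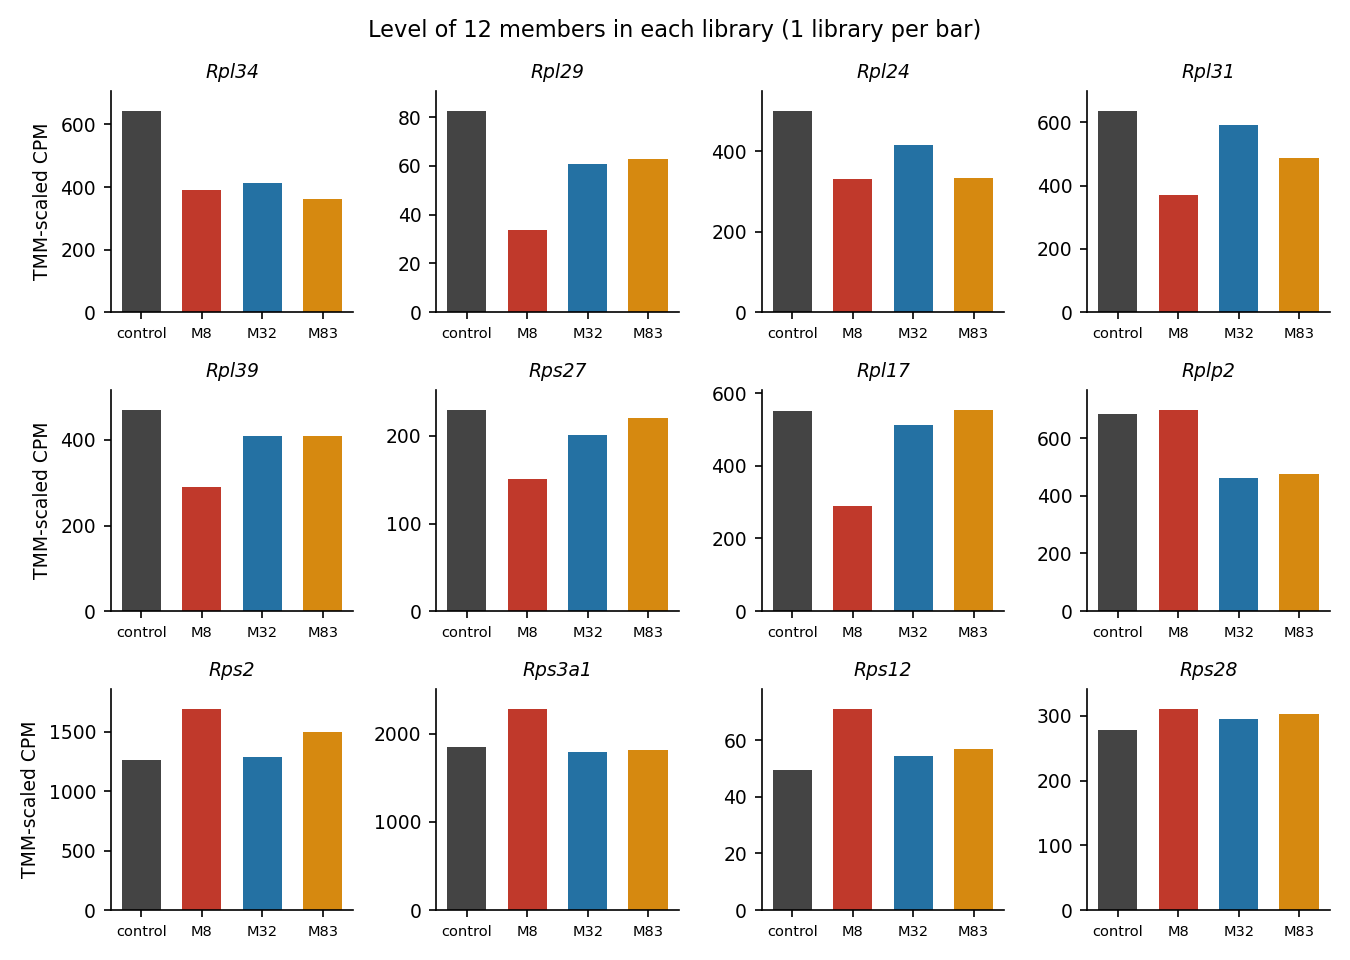
TMM-scaled CPM of 12 genes in each of the 4 libraries, 1 library per bar, with no error bars because each line has 1 library. Control is the highest bar for Rpl34 (644 against 362 to 413), M8 is lowest for Rpl29 and Rpl17, and M8 is highest for Rps2, Rps3a1 and Rps12.

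Of the 6 genes with the highest difference between mutant lines and control, 5 were of the small subunit, and the other was Rps19bp1. Rps2, by the mRNA entry, had 32308 counts in control, compared with 48239 for M8, 35038 for M32 and 43336 for M83, or 1266, 1694, 1292 and 1499 CPM. It was highest in M8 and close to control in M32, with a log2 difference of 0.24 (SE 0.23, adjusted p = 0.9998, edgeR), and 0.14 without M8. Rps28, by the mRNA exit, had 279 CPM in control, against 311 for M8, 295 for M32 and 303 for M83, so that all 3 lines were above control by a small amount. Rps3a1 had 1851, 2285, 1795 and 1814 CPM, above control in M8 only. Rps12 had 49.3 CPM in control, compared with 71.1 for M8, 54.4 for M32 and 56.7 for M83, a log2 difference of 0.30 (SE 0.26, adjusted p = 0.9998, edgeR), and 0.17 without M8. With the counts of its copies added it had log2 ratios of 0.11 for M8, -0.13 for M32 and 0.06 for M83, and the difference was 0.02. Rps18 had 39.0, 44.9, 41.0 and 41.3 CPM, and with its copies its log2 ratios were -0.07 for M8, -0.03 for M32 and 0.20 for M83. With copies added, 2 of the 84 genes lay above control in every line in place of 4. Rps19bp1 had 53.3 CPM in control, against 71.4 for M8, 51.6 for M32 and 46.8 for M83, high in M8 alone.

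The values of some other genes of known roles are given as description only. Rpl5, Rpl11, Rps6 and Rpl3 lay below control in all 3 lines, and Rps27a, Rpsa and Rps3 did not. Rpl5 and Rpl11, which with 5S ribosomal RNA bind Mdm2, had log2 ratios of -0.31 and -0.05 in M8, -0.10 and -0.24 in M32 and -0.10 and -0.20 in M83. Rps6, the substrate of the S6 kinases, had -0.05, -0.18 and -0.21 in M8, M32 and M83. Rps27a, made as a fusion with ubiquitin, had 0.13, -0.21 and -0.39, above control in M8 and below it in the other lines. Rpsa, also known as the laminin receptor, had 0.15, -0.04 and 0.06, and Rps3, which also takes part in DNA repair, 0.26, -0.05 and -0.09. Rpl3, which reaches the peptidyl transferase centre, had -0.02, -0.02 and -0.42, close to control in M8 and M32 and lower in M83. It lies on chromosome 15, whose tested genes had median log2 ratios of 0.20 for M8, 0.11 for M32 and -0.19 for M83. Less the chromosome median, Rpl3 stood at -0.22, -0.14 and -0.23, so that M83 no longer stood apart. The part of the chromosome in these values was not tested further. These genes were named after their values were seen.

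Among the paralogs, Rpl39l, close in sequence to Rpl39, had 3543 counts in control, compared with 3398 for M8, 3325 for M32 and 2393 for M83, or 139, 119, 123 and 82.8 CPM. It was low in M83 (ratio 0.596, 0.566 to 0.628), whereas Rpl39 was low in M8. Rpl39l lies on chromosome 16, which was low in M83 over all its tested genes (median -0.53, log2). Less the chromosome median, Rpl39l stood at -0.22 in M8, -0.15 in M32 and -0.21 in M83. Rpl39, on chromosome X, then stood at -0.66, -0.20 and -0.22. The pair shares that follow were not adjusted for the chromosome, and its part in them was not tested. Per exon length, Rpl39l made up 33.7% of the pair in control, against 41.5% for M8, 34.1% for M32 and 25.9% for M83. With the longest transcript as length these shares were 18.3%, 23.8%, 18.5% and 13.4%, so their size rests on the length used, while M8 was highest and M83 lowest with both lengths. Rps27l, whose gene is a known p53 target, made up 49.1% of its pair with Rps27 in control, compared with 59.9% for M8, 51.9% for M32 and 51.0% for M83. Its own level was 174 CPM in control, against 176 for M8, 170 for M32 and 180 for M83, while Rps27 had 229.9, 150.4, 201.3 and 220.7 CPM and was lowest in M8. Rps27rt, a copy of Rps27 without introns, had 475, 505, 481 and 300 counts and was low in M83 alone (ratio 0.557, 0.481 to 0.645). Of its 31-base words, 92.7% occur in another gene, so its counts are uncertain.

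Rpl36al had 287 CPM in control, compared with 169 for M8, 238 for M32 and 272 for M83, and its partner Rpl36a 401, 281, 327 and 378, so that both were lowest in M8. Rpl36al lies on chromosome 12, which was low in M8 over all its tested genes (median -0.52, log2). Less the chromosome median, Rpl36al stood at -0.25 in M8, -0.27 in M32 and -0.23 in M83, so that M8 was no longer lowest. Rpl36a, on chromosome X, then stood at -0.48, -0.29 and -0.10. Rpl22l1 had 159 CPM in control, against 152 for M8, 168 for M32 and 123 for M83, and it made up 49.3%, 47.6%, 51.5% and 45.1% of its pair with Rpl22. Rpl7l1, known from ribosome assembly, had 175, 151, 149 and 144 CPM, below control in every line, and made up 10.5%, 10.2%, 9.46% and 7.95% of its pair with Rpl7. Shared sequence touches most of the family. In 74 of the 86 genes at least 10% of 31-base words occur in the transcripts of another gene, and in 32 at least 30%, led by Rpl36 (94.1%). In Rpl34 the share was 10.4%, in Rpl29 44.9% and in Rpl17 46.1%.

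The genes lie on 19 chromosomes, and in some lines the median of all genes of a chromosome was far from 0. In M83 the median log2 ratio of the 397 tested genes of chromosome 16 was -0.53, and the 3 ribosomal protein genes there, Rpl24, Rpl35a and Rpl39l, had a median of -0.59. In M8 the 474 genes of chromosome 12 had a median of -0.52, and Rpl36al, Rps7 and Rps29, the 3 members there, lay between -0.76 and -0.35. On chromosome 17 the median of all 689 genes was 0.20 for M8, 0.17 for M32 and 0.18 for M83, and 3 of the 4 genes above control in every line, Rps2, Rps28 and Rps18, are among its 7 members. In M32 chromosome 6 had a median of -0.24, and its 1 member, Rpl32, had -0.53. The part of these shifts in the members' values was not tested beyond subtracting the chromosome median. After that, all 3 lines were below control for 51 of 84 genes and above it for 1 (Rps12), against 22.8% and 23.0% of all tested genes. The rule of size then gave 10 lower genes in M8, 1 in M32 and 2 in M83. Rpl34 lies on chromosome 3, Rpl29 on chromosome 9 and Rpl17 on chromosome 18.

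**Figure D5:**
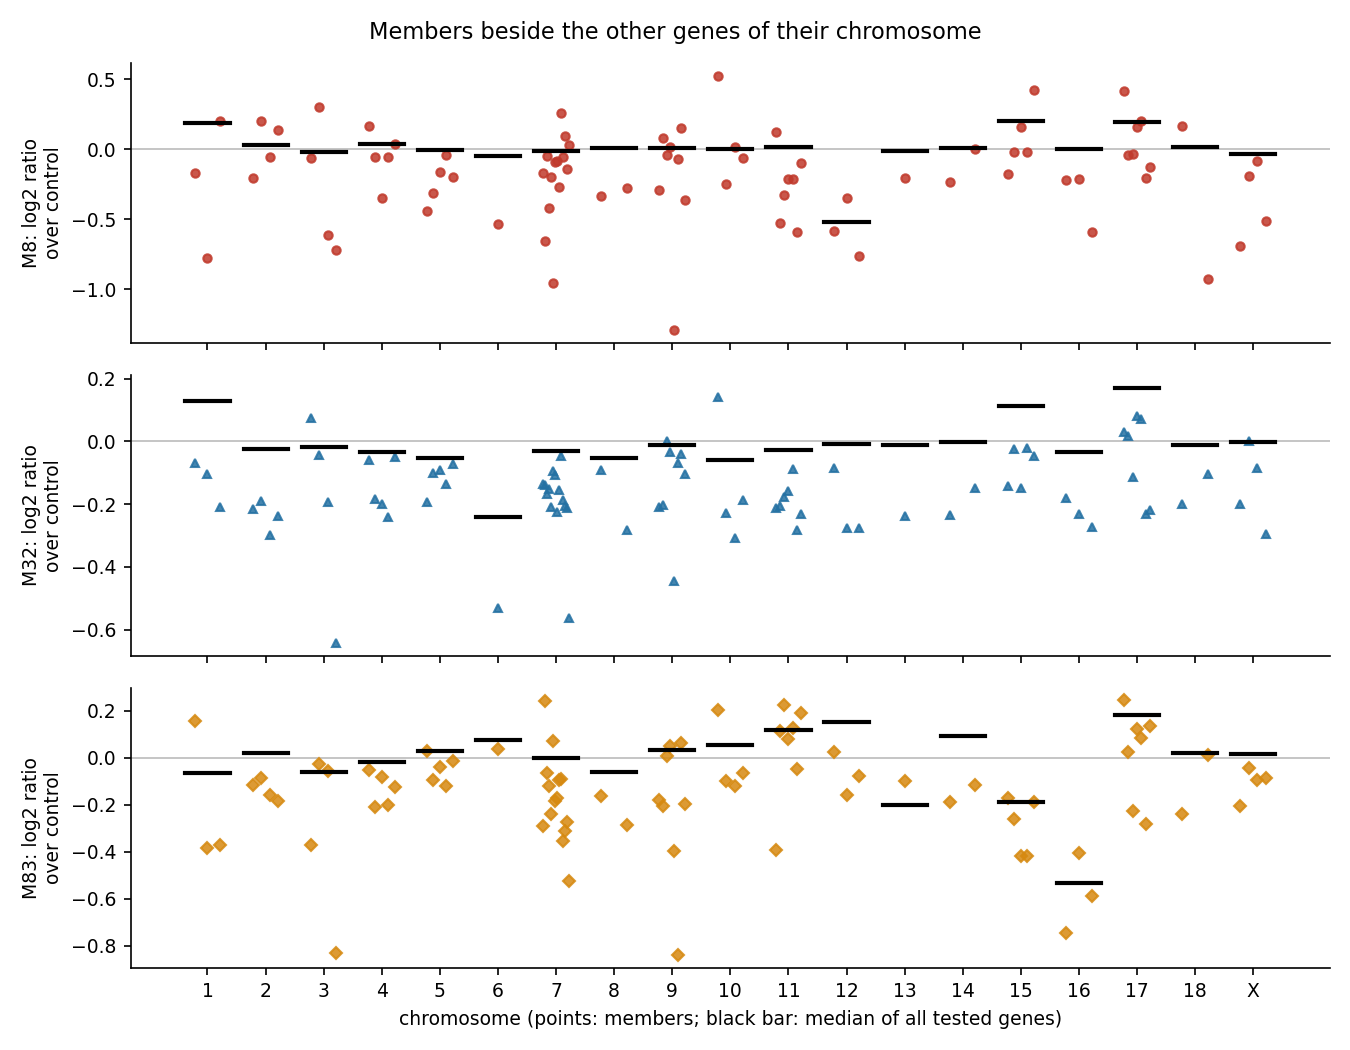
Log2 ratio over control of each ribosomal protein gene (points) by chromosome in M8, M32 and M83, with the median of all tested genes of the chromosome as a black bar, 1 library per line. The bars of chromosome 12 in M8 (-0.52) and chromosome 16 in M83 (-0.53) stand apart, with the members there around them.

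Other genes of the ribosome pathway were described from fixed lists, and 0 genes of any list passed edgeR's quasi-likelihood test at an adjusted p under 0.05. The counts below stand beside 21.3% of all tested genes that lay below control in every line and 23.3% that lay above. Of the ribosomal proteins with other names, Rack1 had 30464 counts in control, compared with 27643 for M8, 29766 for M32 and 28765 for M83, a log2 difference of -0.23 (SE 0.20), and Fau had a difference of -0.03. Of 18 other TOP mRNAs, which code mostly for elongation and initiation factors, 4 lay below control in every line and 3 above, with a median difference of -0.07. Naca, of the nascent chain complex, had -0.32, Npm1, a nucleolar chaperone, -0.26, and Eif2s3x, a subunit of initiation factor eIF2, 0.30. Of 78 mitochondrial ribosomal proteins, 24 lay below (30.8%) and 10 above (12.8%), with a median of -0.09. Mrpl24 had 0.54, Mrps21 -0.46 and Mrpl42 -0.46.

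RNA polymerase I, which makes ribosomal RNA, had 6 of 14 subunit and factor genes (42.9%) below control in every line and 0 above, with a median of -0.15. Twistnb, a subunit of the enzyme, had 893 counts in control, against 796 for M8, 721 for M32 and 766 for M83, a log2 difference of -0.37 (SE 0.22). Of 45 ribosome assembly genes, 13 were below in every line (28.9%, near the 25.3% of other abundant genes) and 0 above, with a median of -0.15. Gar1, of the pseudouridylation complex, had -0.55, Lsg1, which acts on the late large subunit, -0.34 and Pes1 -0.33. For assembly genes the line medians were 0.10 for M8, -0.31 for M32 and -0.24 for M83, while for the ribosomal protein genes all 3 were negative. snoRNA host genes had 1 of 12 below and 2 above. Among 19 tested regulators, 6 lay below and 6 above. Myc had 2854 counts in control, compared with 3393 for M8, 2758 for M32 and 3747 for M83, a difference of 0.06 (SE 0.24), and Mxd4, an antagonist of Myc, had 354, 828, 942 and 751 counts, a difference of 1.11 (SE 0.29, adjusted p = 0.9998, edgeR).

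Cell cycle genes and signs of RNA quality also differed between the libraries. Of 20 cell cycle genes, 15 lay below control in every line and 0 above, with a median difference of -0.29. Mki67, a marker of cycling cells, had 12301 counts in control, against 5339 for M8, 8200 for M32 and 8746 for M83, and Rrm2, of nucleotide synthesis, 10866, 4921, 8413 and 8027. For both genes control was highest and M8 lowest. Gm42418, a row that overlaps ribosomal RNA sequence, had 2674, 5808, 3417 and 5641 counts, more in M8 and M83 than in control and M32. The RNAs Malat1 and Rpph1 were likewise highest in M8 and M83, with 5086, 7027, 5287 and 9995 counts of Malat1. Rmrp, of the same list, differed from them, with 67, 110, 58 and 53 counts, highest in M8 and lowest in M83. The part of these in the levels of the ribosomal protein genes was not tested.

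Gene length and base composition were set beside the ratios. The median exon length was 1754.5 bases in the family and 4144.5 in all tested genes, and the median GC content 50.8% and 49.3%. Across the 84 genes, which share libraries and depth, Spearman's rho between length and log2 ratio was 0.21 for M8, 0.21 for M32 and -0.13 for M83, and between GC content and log2 ratio -0.05, -0.29 and 0.02. These correlations are descriptions across genes, and genes are not replicates. With a length trend over all genes removed from each library, the median difference of the family was -0.24, and with a GC trend removed -0.24. In these fits 1 and 2 genes lay above control in every line.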

How the data were processed

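The authors deposited raw counts per gene, whole numbers with no normalisation and 1 column per sample. RNA was prepared with RNeasy Micro columns, NEBNext poly(A) selection and NEBNext Ultra II, per the labels' protocols. Per the submitters' processing notes, GRCm38 was the genome build. The aligner, the counter, the annotation and the strand setting were not given in the sources used here. Overlapping genes on opposite strands therefore cannot be told apart. The labels speak of triplicates. Whether a column sums repeats is unknown, and no repeat was available as a replicate.

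Counts were scaled with TMM factors (0.986 to 1.03) and tested with edgeR 4.0.16 in R 4.3.3 (quasi-likelihood F-test, filterByExpr, 13576 genes, threshold 0.05). DESeq2 1.42.0 was an alternative. Log2 ratios of single lines used a prior count of 2. A count of 0 allows up to 3 counts. Intervals are Clopper-Pearson and cover counting error only, since reads carry no molecular identifiers. Lengths, positions and shared words of 31 bases came from GENCODE (release vM21), which holds 41434 of the 41457 row identifiers and all 86 members.

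Members, lists and rules were chosen with earlier results of these data known. The genes named were the 6 highest and 6 lowest in the mutant lines against control, the 4 highest and 4 lowest in each line, the 5 highest and 5 lowest per length, genes set 1.5-fold apart in 1 library, the paralogs, Rps19bp1 and 3 genes per list. Other genes were named after their values were seen. Not every gene so chosen is described. Some are not reported here. The scripts were tested on simulated data. Alternatives were other scalings and filters, length and GC trends, left-out lines, the standard set alone, a 2-fold rule, a prior count of 0.5, other denominators and lengths. Copies joined to the gene (23 rows) and chromosome medians removed were chosen after seeing the data.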

Additional observations from a re-analysis of the deposited data

How the results depend on the processing

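The median log2 difference between mutant lines and control stayed below 0 under every alternative run. It was -0.17 with TMM factors computed without the members, -0.18 with no filter on low counts, -0.24 with the length trend removed and -0.24 with the GC trend removed. Without 1 line it lay between -0.17 and -0.14. The same held for single lines. The M8 median was -0.18 with no filter, -0.24 with the length trend and -0.21 with the GC trend removed. The M32 median was -0.20 with TMM factors without the members, -0.21 with no filter, -0.26 with the length trend and -0.25 with the GC trend removed. The M83 median was -0.055 with library size only, -0.15 with no filter, -0.23 with the length trend and -0.21 with the GC trend removed. Genes above control in every line numbered 1 with the length trend removed, 2 with the GC trend removed, 2 with copies joined and 1 with chromosome medians removed. By the rule of size M32 held 2 genes with TMM factors without the members, 2 with no filter, 3 with the length trend and 4 with the GC trend removed. At 2-fold M8 held 1, M32 0 and M83 0. M83 held 2 with the standard set only and 2 with chromosome medians removed. For the rule of size, the share of all tested genes under these alternatives was not computed. The difference of Rps3a1 turned to -0.038 with the length trend removed, and leaving out 1 line gave -0.036 to 0.12 (-0.036 without M8). That of Rps19bp1 turned to -0.035 with the length trend and -0.031 with the GC trend removed, and leaving out 1 line gave -0.12 to 0.19 (-0.12 without M8). The cause of these shifts was not tested. The share of counts on the family was 6.13%, 5.65%, 5.54% and 5.94% in control, M8, M32 and M83 with the standard set only, and 6.45%, 5.96%, 5.84% and 6.28% with copies joined. The median TPM was 1586, 1310, 1473 and 1393 with the longest transcript as length. Under the remaining alternatives 86 summary results and 139 single values kept their direction and call or lay close to the main ones, and for single genes this says nothing of the size of the difference. No paired analysis was possible because the control has 1 library and the groups share 1 replicate number. No member passed the test under any alternative, and with 1 control library and 2 residual degrees of freedom that says nothing about stability. Counting error is small at this depth, so the spread between cultures, which was not measured, limits each value.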
